A study of Mus musculus with 8 samples.

Results

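The 9 genes described here belong to the mouse p53 and CDK inhibitor network and were measured in sorted pancreatic cancer cells. They are Trp53, Mdm2, Cdkn1a, Cdkn1b, Cdkn2a, Cdkn2b, Ccng1, Plk2 and Sesn1. They were picked by symbol from the 39179 genes of the deposited count table, and all 9 were found and passed the filter on low counts. The cells are epithelial cancer cells of a mixed FVB/B6 strain background, whose genotype includes p48Cre, ROSA_rtTAL+ and p53L+. In this mouse model Cre recombinase is driven by the p48 (Ptf1a) promoter of the pancreas, and rtTA is a tetracycline-controlled transactivator. All libraries share this genotype, including the p53L+ allele state, and all cells carried a GFP label. They had been cultured for 72 h with RFP-labelled pancreatic stellate cells (PSC) in 0.5% dialyzed serum and were then sorted by colour. One arm of 4 libraries received an antibody that neutralizes sonic hedgehog (SHH), at 20 µg/mL, and the other arm of 4 libraries received none. The arms follow the treatment label of each sample, since the protocol text names the antibody alike for all 8 libraries, and every direction given here rests on that label. The labels name no control antibody, no doxycycline schedule and no number of cell lines, so whether the 4 samples of an arm come from more than a single line is not given here. The question is how neutralizing SHH, next to stellate cells, alters the tumour cells' transcripts.

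As background, p53 is a transcription factor that is held at a low level by MDM2, an E3 ubiquitin ligase whose own gene p53 induces. Stress frees p53, which then raises transcripts such as Cdkn1a, Ccng1, Plk2 and Sesn1. The inhibitors of cyclin-dependent kinases (CDKs) form a pair of families. The CIP/KIP proteins p21 (Cdkn1a) and p27 (Cdkn1b) bind cyclin E and cyclin A complexes of CDK2, and the INK4 proteins p16 (Cdkn2a) and p15 (Cdkn2b) bind CDK4 and CDK6. Cdkn2a also encodes ARF from another first exon, and ARF binds MDM2 and so protects p53. In pancreatic cancer the Cdkn2a and Trp53 loci are among those most often lost.

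Each library assigned 10009711 to 15733280 counts to genes, and every antibody library was deeper than every library without antibody (two-sided exact permutation p = 0.0286, adjusted p = 0.152 over 8 library measures; n = 4 each). Epithelial markers took 0.706% to 0.823% of counts, and all 11 of them were detected in some library, which fits the label. Cldn7 was near absent (0 to 15 counts per library), and Cldn4 (26 to 54) and Esrp1 (44 to 68) were low. Of the 10 that passed the filter, edgeR called 1 (10%, beside 8.4% of all genes), Epcam, which was higher with antibody (adjusted p = 0.022). The 26 stellate and fibroblast markers took 0.0444% to 0.0503% of counts with antibody and 0.0501% to 0.0577% without (exact permutation p = 0.0571, adjusted p = 0.152; n = 4 each). Of these markers, the matrix genes Dcn and Lum were at 0 in all libraries, and Acta2 and Des never exceeded 2 counts. Others were abundant, foremost Fbln2 with 3104 to 4155 counts per library and Col5a1 with 1066 to 1864. Of the 16 that passed the filter, 3 were called by edgeR (18.8%, beside 8.4% of all genes). Fbln2 was lower with antibody (means of 227.7 against 305.5 CPM, that is, counts after scaling all libraries to the same total; adjusted p = 8.5e-06), as was Pdgfra (2.78 against 4.97 CPM, adjusted p = 0.00271), and Gas6 was higher (9.26 against 6.89 CPM, adjusted p = 0.0339). The part of these markers in the results below was not tested. Replicate 1 without antibody stood apart, with 6.21% of counts in mitochondrial mRNAs where the other 7 libraries had 3.94% to 4.77%. In chi-square over degrees of freedom of the gene counts, it differed from the rest of its arm by 9.28 to 11.3. Replicate 4 without antibody was set apart on this measure alone, and to a lesser degree (4.62 and 3.94 against replicates 2 and 3). Replicates 2 and 3 differed by 1.79, and pairs of antibody libraries by 1.72 to 3.72, little below replicate 4. Each member that changed its call without replicates 1 and 4 of that arm is given with and without them. For the related lists whose number called changed, the counts without them are given, and the genes behind the change are not named. Because these are bulk samples, fewer cells that make a transcript and less of it per cell cannot be told apart.

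The sequences just before the start sites of 4 members are printed because 3 of these genes fell with the antibody and the other, Ccng1, did not pass the test. They are the 250 bases upstream of each RefSeq start site (GRCm38.p6), 5′ to 3′ on the gene's strand, and entries were found for all 9 members. Capitals mark every match to the motifs searched on both strands. These were the GC box GGGCGG, the CCAAT box CCAAT, the E-box CACGTG, the AP-1 site TGANTCA, the FOXO site GTAAACA, the p53 half-site and the p53 full site. The full site is a pair of adjacent half-sites with at most 1 letter off in all and the core C and G of both intact. Each full site found holds 1 exact half-site. Cdkn1a has a pair of start sites, and both windows are shown.
Cdkn1a upstream start, chr17:29090729-29090978, plus strand: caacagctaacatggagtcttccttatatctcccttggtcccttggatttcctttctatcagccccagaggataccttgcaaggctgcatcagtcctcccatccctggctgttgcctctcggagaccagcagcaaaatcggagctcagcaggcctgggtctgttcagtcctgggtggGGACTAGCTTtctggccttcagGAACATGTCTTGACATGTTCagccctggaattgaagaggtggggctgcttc
Cdkn1a downstream start, chr17:29093519-29093768, plus strand: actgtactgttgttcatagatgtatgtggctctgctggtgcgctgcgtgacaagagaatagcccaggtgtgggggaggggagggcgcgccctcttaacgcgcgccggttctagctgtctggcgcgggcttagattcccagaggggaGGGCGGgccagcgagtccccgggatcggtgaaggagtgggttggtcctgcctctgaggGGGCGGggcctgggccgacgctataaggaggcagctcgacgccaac
Plk2, chr13:110394794-110395043, plus strand: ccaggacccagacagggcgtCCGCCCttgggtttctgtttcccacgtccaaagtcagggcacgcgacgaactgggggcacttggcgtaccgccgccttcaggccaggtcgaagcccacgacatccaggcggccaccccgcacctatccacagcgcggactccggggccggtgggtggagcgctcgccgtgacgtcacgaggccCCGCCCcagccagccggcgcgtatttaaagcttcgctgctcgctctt
Cdkn2b, chr4:89311033-89311282, minus strand: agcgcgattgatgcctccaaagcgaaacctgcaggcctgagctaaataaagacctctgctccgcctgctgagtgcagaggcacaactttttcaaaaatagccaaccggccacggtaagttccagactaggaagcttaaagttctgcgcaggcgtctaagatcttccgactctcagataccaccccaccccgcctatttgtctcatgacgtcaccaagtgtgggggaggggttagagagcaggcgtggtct
Ccng1, chr11:40755287-40755536, minus strand: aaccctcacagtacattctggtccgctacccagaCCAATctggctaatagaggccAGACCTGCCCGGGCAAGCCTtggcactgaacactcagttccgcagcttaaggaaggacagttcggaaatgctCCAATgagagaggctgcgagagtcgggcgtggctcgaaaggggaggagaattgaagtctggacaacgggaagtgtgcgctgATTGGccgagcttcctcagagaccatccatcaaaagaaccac

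A p53 full site was found in 2 of the 12 windows of members, beside 0.0578% of all 32851 windows in the RefSeq table. Known p53 targets were picked for the set, so its share of p53 sites is no independent finding. They were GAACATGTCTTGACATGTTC, which starts at position -51 from the upstream start of Cdkn1a, and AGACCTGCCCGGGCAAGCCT, at -195 from the start of Ccng1. A half-site was present in 5 of the 12 windows, of 5 members (Cdkn1a, Ccng1, Mdm2, Sesn1 and Trp53), and in 7.13% of all windows. GC boxes were found in 7 of the 12 windows, of 6 members (32.7% of all windows), and CCAAT boxes in 6 windows, of 5 members (33.8%). The 12 windows held 52.8% to 78.4% G and C, where the median of all windows was 52.4%. A FOXO site was found for Mdm2 alone among the 9 (3.17%), and no E-box (6.02%) or AP-1 site (6.75%) for any of them. Neither the Plk2 nor the Cdkn2b window held a p53 half-site. A match is a description of the letters and not evidence of binding, and the gene counts do not tell which Cdkn1a start was used.

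By the authors' RPKM, which divides by gene length, the INK4 locus was far the most abundant of the set and p53 itself the least. Cdkn2a stood at 217 ± 14.0 RPKM with antibody and 235 ± 20.1 without (SD, n = 4 each), above 98.6% of the genes tested. Cdkn2b followed at 98.8 ± 2.17 and 113 ± 4.18 RPKM. Ccng1, Cdkn1b, Mdm2, Cdkn1a and Plk2 lay between 13.2 and 25.9 RPKM in every library. Within this group Ccng1 was above Cdkn1b in all libraries, while the ranges of Cdkn1b and Mdm2, of Mdm2 and Cdkn1a, and of Cdkn1a and Plk2 overlapped. Cdkn1a exceeded Ccng1 in replicate 2 without antibody (23.37 and 22.73 RPKM). Sesn1 (3.80 to 4.90 RPKM) and Trp53 (2.39 to 3.93 RPKM) were the lowest, with overlapping ranges. Trp53 at 2.81 RPKM over all libraries was above only 23.2% of the genes tested. Since the table holds 1 value per gene, it does not show how much of the Trp53 signal comes from exons of a recombined allele.

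**Figure D1:**
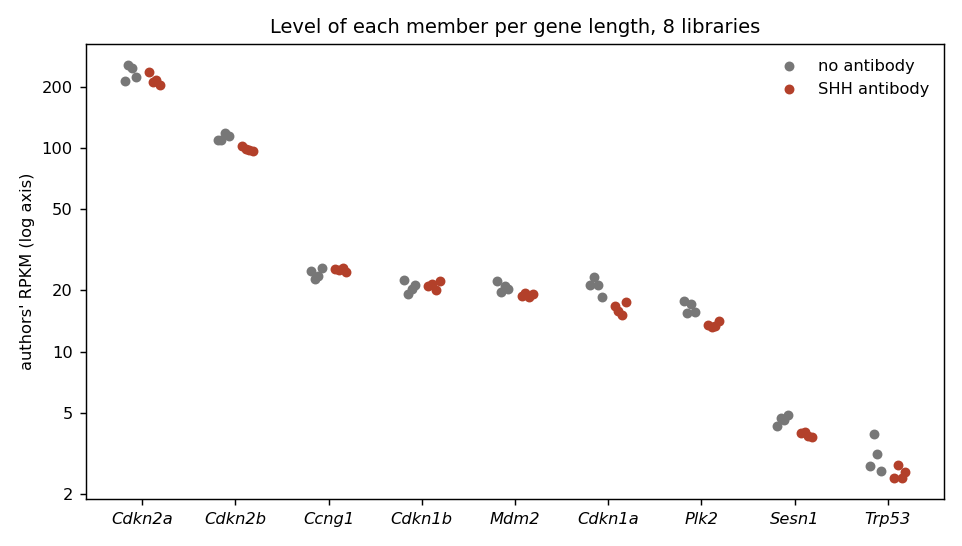
The authors' RPKM of the 9 members on a log axis, with a point for each of the 4 libraries without antibody (grey) and the 4 with SHH antibody (red). Cdkn2a lies between 204 and 257 RPKM and Trp53 between 2.39 and 3.93 RPKM.

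With the antibody, 3 of the 9 members fell and none rose: Cdkn1a, Plk2 and Cdkn2b. The changes were modest, 1.3-fold, 1.22-fold and 1.15-fold. Lower calls made up 3.87% of the 13626 genes tested, higher calls 4.53%, and calls in either direction 8.4% (adjusted p under 0.05 in the edgeR quasi-likelihood fit). At unadjusted p under 0.05, 7 of the 9 were lower and 0 higher, where 10.5% of all genes were lower and 11% higher. DESeq2 and limma voom likewise called 3 lower and 0 higher, with 3.64% and 3.77% of all genes called as lower and 4.21% and 4.58% as higher (of the 13064 and 13626 genes that these tools gave an adjusted p). Without replicates 1 and 4 of the untreated arm 5 members were lower and 0 higher, with 8.21% of all genes then called as lower and 8.06% as higher. For 5 members the ranges of the arms were separate (Cdkn1a, Cdkn2b, Plk2, Mdm2 and Sesn1), all lower with antibody, beside 14.3% of all genes tested without overlap in either direction. The median log2 fold change of the members was -0.20, and that of all genes tested was -0.0044. CPM below are counts scaled to a common total on TMM-scaled library totals, and fold changes are antibody over no antibody.

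**Figure D2:**
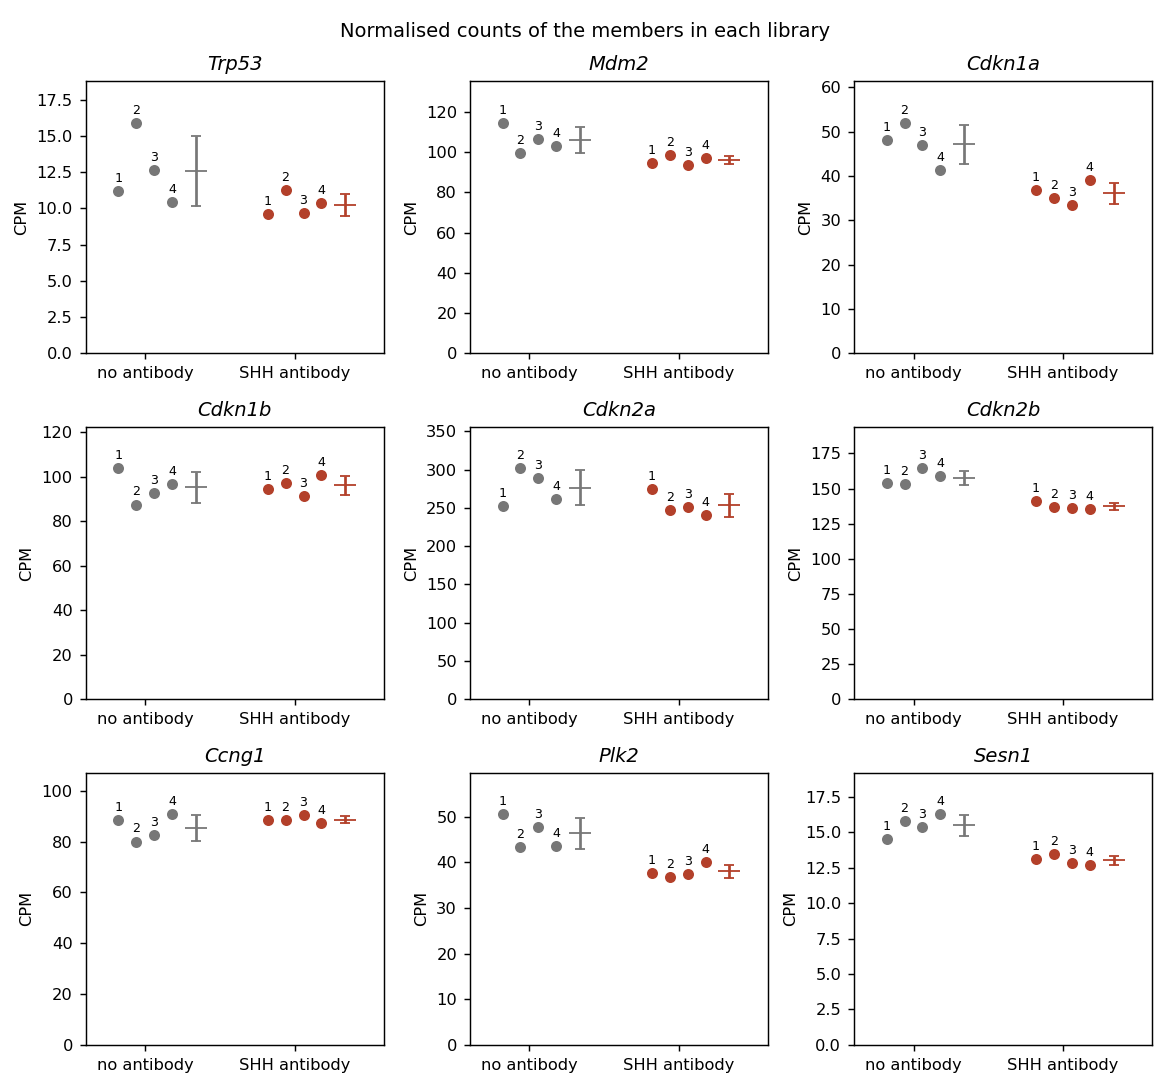
CPM of each member in every library, numbered by replicate, with the mean and SD of each arm (n = 4) beside the points and each axis starting at 0. For Cdkn1a, Cdkn2b, Plk2, Mdm2 and Sesn1 every red point lies below every grey point.

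Cdkn1a fell and Cdkn1b did not pass the test, although both encode CIP/KIP inhibitors of CDK2. Cdkn1a, which encodes p21, the inhibitor that p53 is best known to induce (ENSMUSG00000023067, chromosome 17, 29090979 to 29100722, GRCm38), had 36.9, 35.1, 33.5 and 39.1 CPM with antibody and 48.2, 52.1, 47.0 and 41.4 CPM without. All antibody libraries were below all others, and the closest pair was replicate 4 of each arm. The log2 fold change was -0.38, SE 0.07 (BH-adjusted p = 0.000983), with a 95% interval of the fold from 0.70 to 0.85. Its call held under all 20 alternatives tried, from -0.46 to -0.33 in log2 fold change, and with adjusted p between 1.41e-06 and 0.0166. In a later annotation (GENCODE M21) a provisional transcript lies on the opposite strand within Cdkn1a, and the strand setting of the count table is unknown.

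Cdkn1b, which encodes p27 (chromosome 6, 134920401 to 134925513), had 94.7, 97.4, 91.4 and 101.0 CPM with antibody and 103.8, 87.5, 92.6 and 96.9 CPM without. The arms overlapped over nearly their whole range. Its log2 fold change was 0.01, SE 0.05 (BH-adjusted p = 0.941), and its 95% interval (fold 0.93 to 1.09) holds no change as large as the estimate for Cdkn1a. Its sign was not stable under the alternatives, from -0.03 to 0.09.

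The ratio of raw counts within a library needs no scaling between libraries, and 4 such ratios were compared, chosen after the values had been seen. Cdkn1a had 0.39, 0.36, 0.367 and 0.387 counts for each Cdkn1b count with antibody and 0.464, 0.595, 0.508 and 0.427 without. The ranges did not overlap, and the means were 0.376 ± 0.0148 and 0.498 ± 0.0725 (SD over 4 libraries; exact permutation p = 0.0286 in a two-sided test, the smallest this design can give, or 0.0572 after adjustment over the 4 ratios). Against Ccng1, another p53 target, Cdkn1a had a ratio of 0.408 ± 0.0326 with antibody and 0.555 ± 0.0805 without, also without overlap (exact permutation p = 0.0286, adjusted p = 0.0572; n = 4 each). Neither ratio passed 0.05 after adjustment, and the adjustment does not cover the choice of pairs. Cdkn1a was set over members already seen not to fall, so these ratios describe the same values and are no further test. Cdkn2a over Cdkn2b (1.84 ± 0.0789 and 1.75 ± 0.152, exact permutation p = 0.286, adjusted p = 0.381) and Mdm2 over Trp53 (9.42 ± 0.492 and 8.68 ± 1.8, exact permutation p = 0.571 before and after adjustment) overlapped between the arms (n = 4 each).

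**Figure D3:**
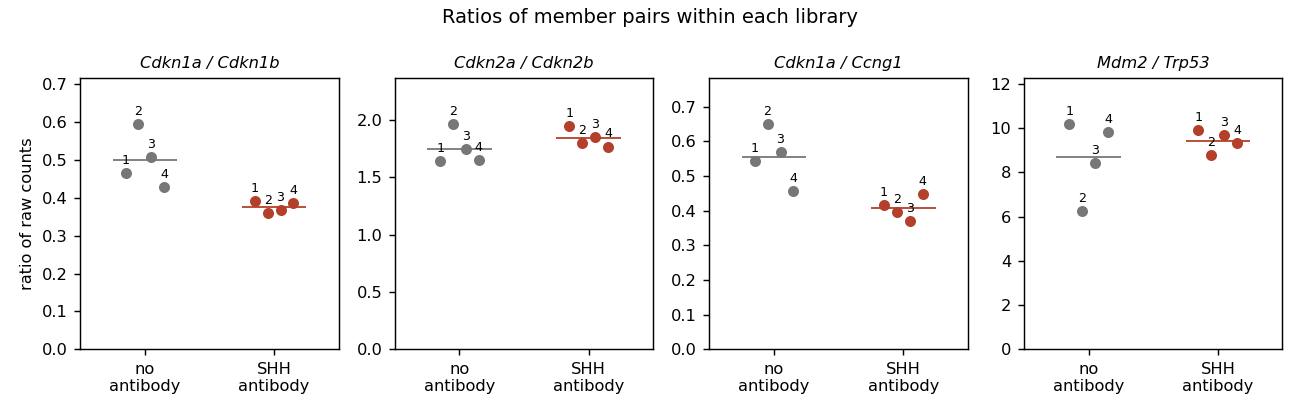
Ratios of raw counts of 4 member pairs within each library, numbered by replicate, with a line at the mean of each arm (n = 4) and axes starting at 0. The red points of Cdkn1a over Cdkn1b (0.36 to 0.39) all lie below the grey points (0.427 to 0.595).

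At the INK4 locus on chromosome 4, Cdkn2b fell and Cdkn2a did not pass the test. Cdkn2b, which encodes p15, an inhibitor of CDK4 and CDK6 that TGF-beta is known to induce (ENSMUSG00000073802, 89306289 to 89311032), had 140.8, 137.1, 136.1 and 135.6 CPM with antibody and 154.1, 153.3, 164.4 and 159.0 CPM without. The arms were clearly apart and each was tight. Its log2 fold change was -0.20, SE 0.04 (BH-adjusted p = 0.00657), a fold of 0.87 with a 95% interval from 0.82 to 0.93. The call held under all 20 alternatives, from -0.21 to -0.18 (adjusted p 0.000384 to 0.037).

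Cdkn2a, which lies 11635 bases from Cdkn2b (89274471 to 89294653), had 274.7, 246.8, 251.7 and 240.1 CPM with antibody and 253.0, 301.6, 288.5 and 262.1 CPM without. The arms overlapped, since replicate 1 with antibody was above replicates 1 and 4 without. Its log2 fold change was -0.12, SE 0.06 (BH-adjusted p = 0.206). Leaving out replicate 1 of the untreated arm turned this into a lower call (-0.16, adjusted p = 0.0288), as did leaving out its replicates 1 and 4 (-0.22, adjusted p = 0.000342) and weighting the samples in voom (-0.17, adjusted p = 0.0158). The higher values without antibody, those of replicates 2 and 3, came from the shallowest libraries (10009711 and 10670776 counts), and the part of depth in this was not tested beyond thinning all libraries to the smallest total, where its adjusted p was 0.156. The count of Cdkn2a sums p16 and ARF transcripts, which the table does not separate. The INK4 genes are related in sequence, and how reads that match both were counted is not given.

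Neither Trp53 nor Mdm2 passed the test. Trp53 (ENSMUSG00000059552, chromosome 11, 69580359 to 69591873) had 9.58, 11.2, 9.68 and 10.4 CPM with antibody and 11.2, 15.9, 12.7 and 10.5 CPM without. Replicates 2 and 3 without antibody were above all other libraries, and the remaining 2 of that arm lay within the range of the antibody arm. These values rest on 135 to 177 counts per library. The log2 fold change was -0.28, SE 0.12 (BH-adjusted p = 0.16), with a 95% interval of the fold from 0.70 to 0.98. It was -0.15 (adjusted p = 0.47) without replicate 2 of the arm without antibody, and -0.48 (adjusted p = 0.00501), a called value, without replicates 1 and 4 of that arm. With all libraries thinned to the smallest total it was -0.27 (adjusted p = 0.281).

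Mdm2, the ligase that limits p53 (ENSMUSG00000020184, chromosome 10, 117688888 to 117710758), had 94.8, 98.5, 93.7 and 97.1 CPM with antibody and 114.6, 99.5, 106.4 and 103.0 CPM without. All antibody libraries were lower, with replicate 2 of each arm nearly level. Its log2 fold change was -0.14, SE 0.05 (BH-adjusted p = 0.0895), and it was called under 0 of the 20 alternatives (-0.17 to -0.10; adjusted p 0.0548 to 0.239).

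Of the further p53 targets among the members, Plk2 fell, while Sesn1 and Ccng1 did not pass the test. Plk2, a polo-like kinase of centriole duplication (ENSMUSG00000021701, chromosome 13, 110395044 to 110400844), had 37.8, 36.9, 37.5 and 40.0 CPM with antibody and 50.6, 43.5, 47.9 and 43.7 CPM without. No antibody library reached the lowest of the others. The log2 fold change was -0.29, SE 0.06 (BH-adjusted p = 0.00399), and the call held under all 20 alternatives, from -0.32 to -0.24 (adjusted p 0.000692 to 0.023).

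Sesn1, a sestrin that restrains mTORC1 and is also a known FOXO target (chromosome 10, 41810574 to 41908424), had 13.1, 13.5, 12.8 and 12.7 CPM with antibody and 14.6, 15.8, 15.4 and 16.3 CPM without. The arms did not overlap, but at 158 to 238 counts per library the log2 fold change of -0.25 (SE 0.08) missed the threshold (adjusted p = 0.0614). Leaving out replicate 1 of the untreated arm (-0.28, adjusted p = 0.0372) or weighting the samples in voom (-0.26, adjusted p = 0.0409) gave a call.

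Ccng1, which encodes cyclin G1, a long-known p53 target that recruits a phosphatase to MDM2 (chromosome 11, 40748552 to 40755311), had 88.6, 88.3, 90.4 and 87.2 CPM with antibody and 88.6, 80.0, 82.4 and 90.8 CPM without. The arms overlapped, with replicates 2 and 3 without antibody the lowest. The log2 fold change was 0.05, SE 0.05 (BH-adjusted p = 0.63), while its 95% interval (fold 0.96 to 1.11) lies above the whole interval of Cdkn1a. Of the 2 genes with a full p53 site before a start, Cdkn1a fell and Ccng1 did not pass the test.

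**Figure D4:**
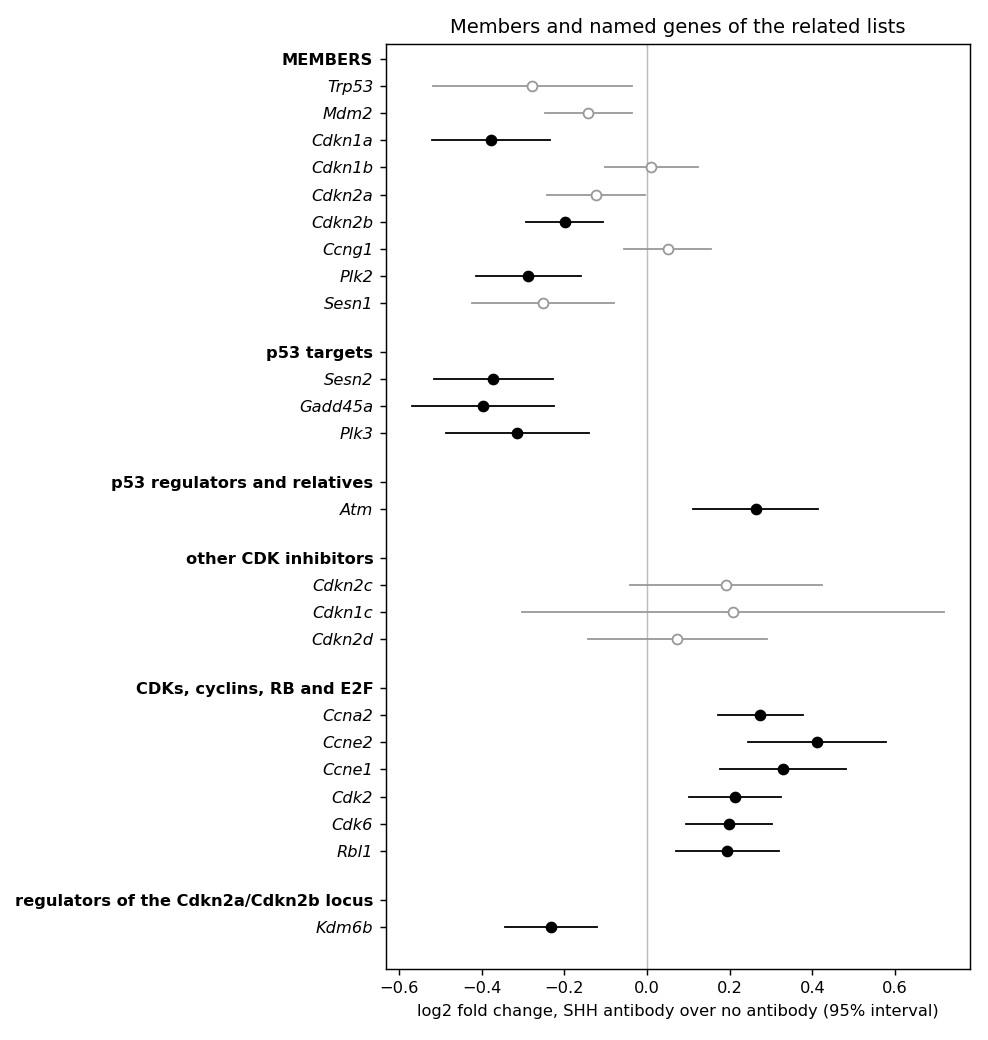
Log2 fold change (antibody over no antibody) with its 95% interval for the 9 members and for the named genes of 5 related lists, filled black where the adjusted p is under 0.05 and open grey otherwise. Cdkn1a, Cdkn2b and Plk2 lie left of 0, and the called genes of the CDK and cyclin list lie right of it between 0.19 and 0.41.

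Few of the other p53 targets passed the test. Of 31 tested, 3 fell and 0 rose (9.68% called), and their median log2 fold change was 0.02. Over all genes 3.87% were called as lower and 8.4% in either direction. For 9 of the 31 the arms did not overlap, in either direction, beside 14.3% of all genes. At unadjusted p under 0.05, 7 were lower and 4 higher (10.5% and 11% of all genes), and DESeq2 and limma voom each called 3 lower (3.64% and 3.77% of all genes) and 1 higher (4.21% and 4.58%). Without replicates 1 and 4 of the untreated arm 4 were lower and 2 higher (8.21% and 8.06% of all genes). Sesn2, a stress-induced sestrin, went from 42.0 ± 3.90 to 32.4 ± 1.89 CPM (a change of -0.37 in log2, SE 0.07, adjusted p = 0.00122). Gadd45a, a stress sensor of growth arrest, went from 37.0 ± 4.39 to 28.3 ± 2.83 CPM (-0.40, SE 0.08, adjusted p = 0.00332). Both are also known to be induced by ATF4, the factor of the amino acid response. Plk3, a polo-like kinase of the stress response, went from 29.3 ± 2.90 to 23.4 ± 2.25 CPM (-0.31, SE 0.08, adjusted p = 0.0197). The call of Plk3 was lost when replicate 3 with antibody (adjusted p = 0.1) or replicate 3 without it (adjusted p = 0.0723) was dropped, and on the authors' RPKM (adjusted p = 0.0723 and 0.0745). Another 3 targets, Eda2r, Fas and Ptprv, had at most 9 counts in any library and were not tested.

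Genes that regulate p53 or are related to it were nearly all uncalled. Of 20 tested, 1 rose and 0 fell (5% called), near the 4.53% background for higher calls. At unadjusted p under 0.05, 3 were higher and 0 lower (11% and 10.5% of all genes). DESeq2 and limma voom each called 1 higher (4.21% and 4.58% of all genes) and 0 lower (3.64% and 3.77%). Without replicates 1 and 4 of the untreated arm 4 were higher and 2 lower, where 16.3% of all genes were called in either direction. Atm, the kinase that activates p53 after DNA breaks, had 56.0, 59.9, 62.7 and 59.2 CPM with antibody and 41.5, 46.9, 53.4 and 56.1 CPM without (0.26 in log2, SE 0.07, adjusted p = 0.0267). The arms overlapped slightly, and the call held under 13 of 20 alternatives. It was lost without replicate 2, 3 or 4 of the antibody arm or replicate 2 of the other (adjusted p 0.0628 to 0.102), after thinning (adjusted p = 0.0725) and on the RPKM (adjusted p 0.131 and 0.132). The p53 relatives Trp63 and Trp73 had at most 2 and 1 counts in any library.

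Some of the kinases and cyclins that the inhibitors bind rose, and others, Cdk4 among them, did not pass the test. Of 17 genes of CDKs, cyclins, RB and E2F, 6 rose and 0 fell (35.3% called). Over all genes 4.53% were called as higher and 8.4% in either direction. At unadjusted p under 0.05, 7 were higher and 0 lower, beside 11% and 10.5% of all genes. DESeq2 called 5 higher and 0 lower (4.21% and 3.64% of all genes), and limma voom 6 and 0 (4.58% and 3.77%). The median log2 fold change was 0.09, and without replicates 1 and 4 of the untreated arm 6 were higher and 1 lower (8.06% and 8.21% of all genes). The CDK2 partners among them were the cyclins Ccne1, from 19.9 ± 0.67 to 24.97 ± 1.67 CPM (0.33, SE 0.07, adjusted p = 0.00609), Ccne2 (0.41) and Ccna2 (0.27). Cdk2 itself went from 58.1 ± 3.61 to 67.3 ± 1.38 CPM (0.21, SE 0.05, adjusted p = 0.015) and was not called after thinning (adjusted p = 0.0599) or when replicate 2 with antibody was dropped (adjusted p = 0.0667). Cdk6, a target of the INK4 proteins, went from 68.6 ± 1.37 to 78.7 ± 3.57 CPM (0.20, SE 0.05, adjusted p = 0.0151), and was not called when replicate 3 (adjusted p = 0.0811) or 4 (adjusted p = 0.0629) with antibody was dropped. The RB relative Rbl1 (0.19, SE 0.06, adjusted p = 0.0461) was called under only 7 of the 20 alternatives (adjusted p 0.0155 to 0.153). Cdk4, the other INK4 target, did not pass the test (-0.07, adjusted p = 0.41). Nor did the cyclins Ccnd1 (-0.02, adjusted p = 0.892), Ccnd2 (0.07, adjusted p = 0.49) and Ccnd3 (0.15, adjusted p = 0.148). Cdk1, Ccnb1, Rb1, Rbl2, E2f1, E2f2 and E2f3 were also uncalled with all libraries. The gene called as lower without replicates 1 and 4 of the untreated arm was among those uncalled with all libraries.

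The inhibitors outside the set gave no call. Cdkn2c (p18) had 18.2 ± 2.19 CPM with antibody and 16.1 ± 3.03 without, a log2 fold change of 0.19 (adjusted p = 0.345). Cdkn2d (p19) had 10.7 ± 0.28 and 10.2 ± 1.36 CPM (0.07, adjusted p = 0.746), and Cdkn1c (p57) 2.13 ± 0.47 and 1.91 ± 0.65 CPM (0.21, adjusted p = 0.687). The edgeR test called 0 of these 3, beside 8.4% of all genes. None of the 3 had an unadjusted p under 0.05 (10.5% of all genes were lower and 11% higher), and DESeq2 and limma voom called 0. The 95% intervals of the fold were 0.97 to 1.34 for Cdkn2c, 0.91 to 1.22 for Cdkn2d and, at 18 to 41 counts per library, 0.81 to 1.65 for Cdkn1c. None of these 3 intervals holds the fold of 0.77 estimated for Cdkn1a, but that of Cdkn1c overlaps the interval of Cdkn1a (0.70 to 0.85).

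Of 14 chromatin and transcription regulators of the Cdkn2a and Cdkn2b locus, 1 fell and 0 rose (7.14% called). Over all genes 3.87% were called as lower and 8.4% in either direction. At unadjusted p under 0.05, 1 was lower and 2 higher (10.5% and 11% of all genes). DESeq2 and limma voom each called 1 lower (3.64% and 3.77% of all genes) and 0 higher (4.21% and 4.58%). Without replicates 1 and 4 of the untreated arm 2 were lower and 1 higher (8.21% and 8.06% of all genes). The gene called with all libraries was Kdm6b, a histone H3 lysine demethylase that opposes Polycomb marks. Kdm6b had 110.2, 113.5, 108.4 and 115.6 CPM with antibody and 124.8, 134.7, 145.3 and 122.1 CPM without, so the arms did not overlap. Its log2 fold change was -0.23, SE 0.05 (BH-adjusted p = 0.00813), and the call was lost on the RPKM (adjusted p = 0.0611 and 0.0601).

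**Figure D5:**
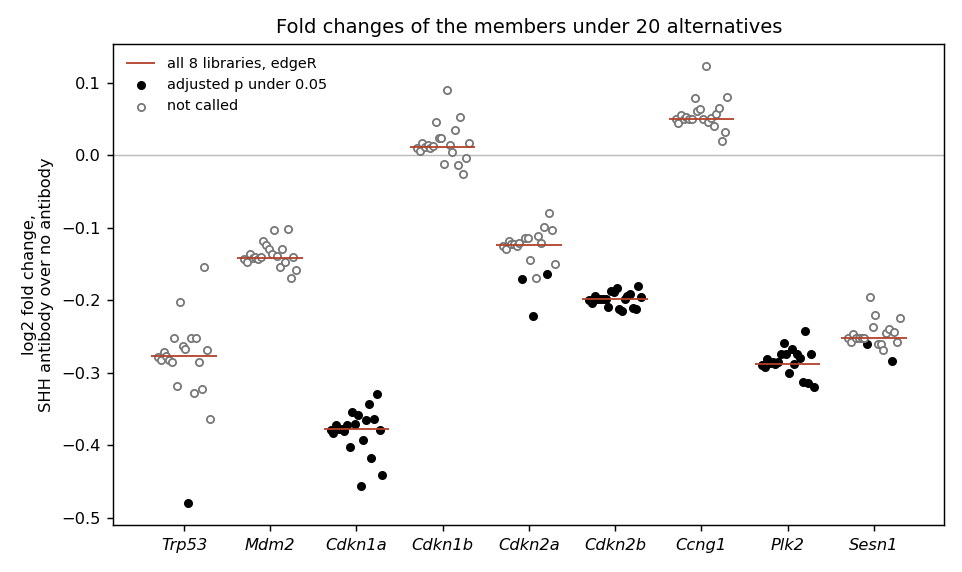
Log2 fold change of each member under each of 20 alternatives (other scaling, filters, tools, thinning and libraries left out), black where called and open where not, with a red line at the value of the test on all 8 libraries. All points of Cdkn1a, Cdkn2b and Plk2 are black and below 0, and those of Cdkn1b lie on both sides of 0.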

How the data were processed

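PolyA RNA of 8 libraries from sorted cancer cells was sequenced in paired reads with a strand-marking kit, per the labels' protocols. Per the submitters' processing notes, CASAVA 1.8.2 and TopHat2 2.0.9 were used with GRCm38. For the counting tool, annotation release and strand setting nothing is given in the sources used here. Deposited by the authors were raw counts per Ensembl gene and RPKM values of the same libraries. Columns were matched to samples by title, and arms were taken from the treatment label, where titles with the word minus belong to libraries labelled with antibody; the treatment protocol text is the same for all samples.

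The test was that of edgeR 4.0.16 under R 4.3.3 (quasi-likelihood F test on TMM-scaled counts after filterByExpr, with no term but the arm, Benjamini-Hochberg adjustment over the 13626 genes tested). Standard errors come from the F statistic. A count of 3 equals 0.191 to 0.30 CPM, which covers counting error only. Alternatives used DESeq2 1.42.0, limma 3.58.1 and other settings given in the closing section. The procedure was tested on data simulated with equal spread in both arms, where 200 of 13520 genes were changed. It recovered 66% of the genes changed 1.25-fold and 84% of those changed 1.5-fold, and 3.43% of its calls were false. Changes of the size seen among the members can thus go uncalled. The members, the 5 related gene lists and all tests were chosen with earlier results of these data known. Named genes are all members and, of each list, the called genes (at most 6, smallest p first), or every gene of a list of 3. Uncalled genes of a longer list that the text mentions lie outside this rule. The symbols Pidd1 and Tigar were matched through their Ensembl IDs. No other gene of the table overlaps a member. The labels call the samples biological; where they share a culture history, p-values measure only the spread between these samples. Replicate numbers did not pair the samples (correlations of deviations between same-numbered libraries -0.0285 to 0.00662). One element of the genotype is not reported here.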

Additional observations from a re-analysis of the deposited data

Results flagged for a closer look

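Acinar cell markers took 0.00013% of counts in replicate 2 without antibody and 3.07e-05% to 4.69e-05% in the other 3 libraries of that arm, a gap of 0.837 of the arm's range. This single library was far from the others among 34 groups of 4 examined, where chance would give about 1 in 20. The members gave 0 such libraries. No acinar marker was abundant enough to be tested.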

How the results depend on the processing

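Cdkn1a, Cdkn2b and Plk2 kept their direction and call under all 20 alternatives, and Mdm2, Cdkn2a, Ccng1, Trp53 and Sesn1 kept their direction. Members called numbered 5, in place of 3, with voom sample weights (Cdkn2a -0.17 and Sesn1 -0.26 were added) and without replicates 1 and 4 of the arm without antibody (Trp53 -0.48 and Cdkn2a -0.22 were added). Calls over all genes rose as well, from 1144 to 1663 with the weights and to 2263 without both libraries. Leaving out single libraries gave 3 to 5 members called, with Trp53 between -0.36 and -0.15 and Cdkn2a between -0.17 and -0.08. Sesn1 then lay between -0.28 and -0.22 and Cdkn1b between -0.026 and 0.053. Cdkn1b also turned to -0.013 after thinning to the smallest total.

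Over all genes 1144 were called. There were 675 on log2(RPKM + 1), 670 on log2(RPKM + 0.1), 1663 with sample weights and 2263 without replicates 1 and 4 of the arm without antibody. Without single libraries there were 679 to 1485 (679 and 695 without replicates 2 and 3 of the antibody arm). Of the p53 targets, 5 were called with sample weights and 6 without both libraries, in place of 3. Of the p53 regulators, in place of 1, there were 2 without a filter, 2 with the replicate block, 0 on either RPKM scale, 0 after thinning, 6 without both libraries and 0 to 2 without single libraries. Of the locus regulators, in place of 1, there were 2 without a filter, 2 with sample weights, 0 on either RPKM scale, 3 without both libraries and 1 to 2 without single ones. Signs turned for Cdkn2c (-0.036) and Cdkn1c (-0.185) without both libraries, for Cdkn2d (-0.018) without replicate 1 of the arm without antibody (-0.018 to 0.132 over single libraries), for the log2 change of Cdkn2a over Cdkn2b (-0.0127) without both, and for Mdm2 over Trp53 (-0.00737) without replicate 2 of that arm (-0.00737 to 0.229 over single libraries). The cause of these differences was not tested, except that fits without libraries rest on fewer samples.

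The replicate block gave 1005 calls over all genes and the same 3 calls among the members; 0 of the 4 libraries correlated best with its own number. Under the 20 alternatives the median fold change of all genes shifted by at most 0.01 (log2). The leave-one-out values of the ratios were chosen after seeing the data. Among the members Trp53 and Sesn1 had the fewest counts, 135 to 238 per library, and among the other named genes Cdkn1c had 18 to 41.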

Other observations

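The members varied less among the antibody libraries than among the others. The coefficient of variation of CPM was larger without antibody for 9 of the 9 members, for example 19.2% against 7.53% for Trp53, 5.93% against 1.49% for Ccng1 and 3.24% against 1.72% for Cdkn2b. Over all genes tested the biological coefficient of variation was 6.98% without antibody and 3.25% with it. The antibody libraries were also the deeper ones, and the part of depth in this was not tested.

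The raw counts of Trp53 hardly followed the depth of the libraries: 149, 177, 147 and 155 with antibody and 144, 159, 135 and 153 without, in libraries that differ from 10009711 to 15733280 counts. The shallowest library, replicate 2 without antibody, held the second highest count of Trp53.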
